A study of Mus musculus with 2 samples.

Results

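Plasminogen activators and serpins were examined in RNA sequencing of primary chondrocytes, the cells of cartilage, taken from rib cartilage of mice and kept as a monolayer. One library came from control mice and the other from *Myl3*-KO mice. The genes were chosen by name from the expression table, as the rows of *Plau*, *Plaur*, *Plat*, *Serpinf1*, *Serpine2*, *Serpinb2* and *Serpini1*, and they are 7 of 22156 rows. *Myl3*-KO mice carry floxed *Myl3* alleles and Cre recombinase driven by the *Col2a1* promoter, so that deletion is limited to cells in which this collagen promoter was active. By the methods of the paper the controls were littermates with floxed alleles and no Cre, whereas the labels give them as WT. By the same methods primary chondrocytes came from newborn mice, with articular cartilage named as a source beside rib cartilage, which the labels give, and all mice were on the C57BL/6 J background. The paper names no treatment of the cells it sequenced. The comparison asks how the RNA of these cells differs when *Myl3*, a myosin light chain gene, is deleted. Each genotype has 1 library, so no difference between them has a replicate check.

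Plasminogen is turned into plasmin, a protease that dissolves fibrin and cleaves matrix proteins, by the serine proteases urokinase (uPA, from *Plau*) and tissue-type plasminogen activator (tPA, from *Plat*). The urokinase receptor, from *Plaur*, holds uPA at the cell surface. Serpins are suicide inhibitors: the protease cleaves a loop of the serpin and is trapped on it. In cartilage the plasmin system is known for activating latent matrix metalloproteinases and for its part in joint disease.

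The activators share their catalytic fold, and their sequences are shown because reads of related genes can be confused in counting. The lines below hold 66 bases of each coding sequence in GENCODE M21 (GRCm38), from base 1102 to 1167 of *Plau* on chromosome 14 and from base 1498 to 1563 of *Plat* on chromosome 8, counted from the start codon. Capitals mark the 6 codons around the active-site serine.
Plau: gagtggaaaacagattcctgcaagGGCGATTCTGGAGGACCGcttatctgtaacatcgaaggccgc
Plat: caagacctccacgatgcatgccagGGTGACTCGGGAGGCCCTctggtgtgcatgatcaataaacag
Within the capitals 13 of 18 bases were identical, and over the whole stretch 34 of 66. The longest identical run in it was 5 bases. Over 1241 aligned coding bases the genes shared 61.3%. Of all 31-base words in the *Plau* transcripts, 0.466% occurred in another gene, and for *Plat* this share was 0.128%. It was 0.187% for *Plaur*, 0% for *Serpinf1*, 0.619% for *Serpini1*, 1.11% for *Serpine2* and 11.2% for *Serpinb2*, the highest among them.

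Total expected counts, the estimated reads per gene before any scaling, came to 17612434.91 for control and 13477976.98 for *Myl3*-KO. Levels are given in FPKM, which divides the reads by transcript length and library size and so allows genes to be compared. Log2 ratios are of *Myl3*-KO over control after division by the library total, with counts under 3 raised to 3. Intervals are 95% exact intervals and cover counting error only, so they do not hold the variation between mice or cultures. The two-sided exact binomial test compared reads between these libraries and says nothing of the spread within a genotype. Calls of higher or lower needed a ratio of at least 1.5-fold, or 0.58 on the log2 scale, and a Benjamini-Hochberg adjusted p under 0.05 over the 12431 genes whose counts summed to 10 or more. *Myl3*, the deleted gene, was at 0 counts in both libraries and could not check the labels. Of 9 chondrocyte markers in the table, 4 were at 0 in both libraries and 3 reached 3 counts in either, and all together they summed to 57.8 CPM (reads relative to library size, not divided by length) in control and 45.2 CPM in *Myl3*-KO. The 8 fibroblast markers summed to 16931 and 19101 CPM. Among them *Col1a2* had 211652 counts in control and 189213 in *Myl3*-KO, and *Thy1* was at 0 in both. Of the chondrocyte markers, *Acan*, *Matn1*, *Matn3* and *Hapln1*, which define cartilage, were those at 0. *Sox9* had 866 counts in control and 480 in *Myl3*-KO, *Col11a1* had 121 and 99, and *Col2a1* had 30 and 27. In a bulk library, fewer cells of a type and less RNA per cell cannot be told apart.

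Expression differed widely among the 5 genes that were detected, and the order of levels was the same in both libraries. *Serpinf1* was the most abundant, followed by *Plau*, *Plat*, *Plaur* and *Serpini1*. No neighbours in this order had overlapping counting intervals in either library. The other two, *Serpine2* and *Serpinb2*, were at 0 counts in both libraries. Of the 5 with at least 10 counts, 0 were called between the libraries, beside 4.06% of all genes tested (3.14% higher and 0.925% lower). These 5 genes are too few to set against these shares. At an unadjusted p under 0.05, 1 of the 5, *Plau*, passed the exact binomial test, and 0 passed edgeR's exact test with an assumed coefficient of variation of 0.2 or 0.4. The median log2 ratio of the 5 genes was 0.03, beside 0.02 over all genes tested.

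**Figure D1:**
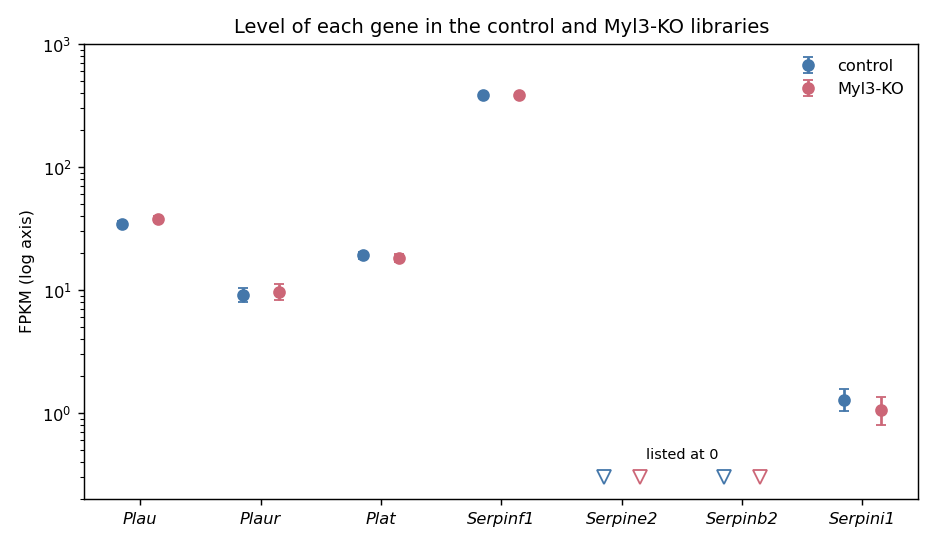
FPKM on a log axis for each gene in the control (blue) and *Myl3*-KO (red) libraries, with 95% counting intervals as bars, and open triangles for genes listed at 0. *Serpinf1* stands at 383 FPKM in both libraries, more than 10 times above *Plau*, and the paired points of each gene lie close together.

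Among the activators, *Plau* (ENSMUSG00000021822, chromosome 14 from 20836660 to 20843385, plus strand) had 1418 counts in control and 1192 in *Myl3*-KO. This corresponds to 34.4 FPKM (95% interval 32.6 to 36.2) and 37.8 FPKM (35.6 to 40.0). The *Myl3*-KO library was thus a little higher, and the intervals of the levels overlapped. The log2 ratio was 0.14 (95% interval 0.02 to 0.25), or 1.10-fold, with an exact binomial p of 0.0178 and a Benjamini-Hochberg adjusted p of 0.0502. The upper end of the interval, 1.19-fold, lies below the 1.5-fold limit. When a coefficient of variation of 0.2 between samples was assumed in edgeR's exact test, the unadjusted p was 0.745.

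*Plat* (ENSMUSG00000031538, chromosome 8 from 22757727 to 22782844, plus strand) had 848 and 620 counts, or 19.1 FPKM in control and 18.2 FPKM in *Myl3*-KO. Its level was about the same in both libraries, with a log2 ratio of -0.07 (95% interval -0.22 to 0.09) and an adjusted p of 0.567 in the exact binomial test. Endothelial cells are a well-known source of tPA, and the 8 endothelial markers summed to 1.65 CPM in control and 3.04 CPM in *Myl3*-KO. Of these, 3 of 8 were at 3 counts or more in either library and *Cdh5*, *Tie1*, *Emcn* and *Cldn5* were at 0 in both. *Vwf* had 22 counts in control and 29 in *Myl3*-KO, *Pecam1* had 5 and 5, and *Kdr* had 2 and 5. *Plat* itself stood at 48.1 and 46.0 CPM. The part of endothelial cells in this level was not tested, and a sum over markers does not measure it.

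The receptor gene *Plaur* (ENSMUSG00000046223, chromosome 7 from 24462484 to 24475968, plus strand) had 241 counts in control and 196 in *Myl3*-KO, or 9.09 and 9.66 FPKM. Its log2 ratio was 0.09 (95% interval -0.19 to 0.37, adjusted p = 0.688, exact binomial test), so a change of up to 1.29-fold upwards or to 0.876-fold lies within counting error. Macrophages, which carry much of this receptor, were represented by 8 markers that summed to 5.23 CPM in control and 4.90 CPM in *Myl3*-KO. Of these, 5 of 8 were at 3 counts or more in either library and *Adgre1* and *C1qa* were at 0 in both. The most counts among them were at *Cd14*, with 50 in control and 30 in *Myl3*-KO, and *Cd68*, with 18 and 16. The part of macrophages in the *Plaur* level was not tested. At the RNA level uPA exceeded its receptor, with 3.78 times the FPKM of *Plaur* in control and 3.91 times in *Myl3*-KO.

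Of the inhibitors, *Serpinf1* (ENSMUSG00000000753, chromosome 11 from 75409769 to 75422701, minus strand) encodes pigment epithelium-derived factor, a secreted serpin that no longer inhibits proteases and is known to restrain vessel growth. It had 10625 counts in control and 8282 in *Myl3*-KO, and 383.37 and 383.44 FPKM. These levels ranked 175 of 14316 genes with an FPKM above 0 in control and 163 of 14207 in *Myl3*-KO. The libraries did not differ beyond counting error, with a log2 ratio of 0.03 (95% interval -0.02 to 0.07, adjusted p = 0.354, exact binomial test). This was the narrowest interval of the 5 genes, and its ends were 0.990-fold and 1.05-fold. With TMM scaling the ratio was -0.000485, so its direction is not determined.

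*Serpini1* (ENSMUSG00000027834, chromosome 3 from 75557547 to 75643495, plus strand) encodes neuroserpin, an inhibitor of tPA best known from neurons. It was the lowest of the detected genes, with 92 counts in control and 58 in *Myl3*-KO, or 1.28 and 1.05 FPKM. The log2 ratio of -0.28 had a 95% interval from -0.78 to 0.21 (adjusted p = 0.442, exact binomial test). A fall past the 1.5-fold limit was therefore not distinguishable from no change at this depth. The neuronal markers *Snap25*, *Rbfox3* and *Stmn2* were at 0 in both libraries. *Syt1* had 20 counts in control and 10 in *Myl3*-KO, *Syp* had 16 and 5, and *Elavl3* had 8 and 10. All 8 markers, which include the less restricted *Tubb3* and *Map2*, summed to 53.8 and 50.8 CPM, with 5 of 8 at 3 counts or more in either library. Their part in the *Serpini1* level was not tested. *Plat* had 14.9 times the FPKM of *Serpini1* in control and 17.4 times in *Myl3*-KO.

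*Serpine2* (ENSMUSG00000026249, chromosome 1 from 79794197 to 79861180, minus strand) encodes protease nexin-1, an inhibitor of thrombin, uPA and tPA. *Serpinb2* (ENSMUSG00000062345, chromosome 1 from 107511423 to 107535478, plus strand) encodes plasminogen activator inhibitor 2, known from macrophages and keratinocytes. The 8 keratinocyte markers, of which 5 reached 3 counts in either library and *Krt1* and *Epcam* were at 0, summed to 4.32 and 6.97 CPM. The most counts among them were at *Trp63*, with 29 in control and 54 in *Myl3*-KO, and *Krt10*, with 27 and 26. *Serpine2* and *Serpinb2* both had 0 counts and 0 FPKM in control and in *Myl3*-KO. The floor of 3 counts used for log2 ratios is 0.170 CPM at the depth of the control and 0.223 CPM at that of the other library. No ratio can be given for either gene. This floor is a setting and not a measured upper limit of expression, and it takes the listed 0 as a count. The cause of the zeros at *Serpine2*, *Serpinb2* and the cartilage markers was not tested. *Serpinb2* overlaps *Serpinb10*, which was also at 0 in both libraries. Over the table, 7257 of 22156 genes were at 0 in both libraries. Of 139 genes picked by the start of their symbol (Rpl or Rps, or Psma to Psmd, then a digit), 6 were. They were *Rpl3l*, *Psma8*, *Rpl10l* and the pseudogenes *Rpl13a-ps1*, *Rpl9-ps1* and *Rpl36-ps4*. This rule aims at ribosomal protein and proteasome genes but can take in others, such as ribosomal S6 kinase genes.

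Promoters of a detected gene and of the genes at 0 are set side by side below, to show what sequence lay at genes with and without reads. The RefSeq table for GRCm38.p6 held promoters of 5 of the 7 genes, from 250 bases before to 50 bases after the annotated start, and those of *Plau* and *Plat* were not used here. The GC box GGGCGG, the AP-1 motif TGANTCA and the TATA box TATAAA were searched on both strands. Of all 32851 promoters in the table, 35.7% held the GC box, 7.81% the AP-1 motif and 13.6% the TATA box. Capitals mark the matches. The lines give chr7:24462233-24462532 (plus strand) for *Plaur*, chr1:79858616-79858915 (minus strand) for *Serpine2* and chr1:107511173-107511472 (plus strand) for *Serpinb2*. The *Serpine2* window lies inside the gene span given above, not at its end.
Plaur: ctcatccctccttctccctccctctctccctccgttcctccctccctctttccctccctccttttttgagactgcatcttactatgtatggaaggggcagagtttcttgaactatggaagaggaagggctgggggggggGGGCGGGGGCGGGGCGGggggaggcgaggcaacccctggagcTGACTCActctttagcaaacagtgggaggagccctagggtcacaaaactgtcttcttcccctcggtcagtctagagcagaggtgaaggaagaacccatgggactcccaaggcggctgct
Serpine2: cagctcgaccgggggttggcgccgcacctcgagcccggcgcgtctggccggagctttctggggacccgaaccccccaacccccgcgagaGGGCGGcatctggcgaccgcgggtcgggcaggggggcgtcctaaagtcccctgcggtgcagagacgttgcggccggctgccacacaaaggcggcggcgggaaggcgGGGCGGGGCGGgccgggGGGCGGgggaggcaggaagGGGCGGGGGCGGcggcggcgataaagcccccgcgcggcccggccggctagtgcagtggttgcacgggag
Serpinb2: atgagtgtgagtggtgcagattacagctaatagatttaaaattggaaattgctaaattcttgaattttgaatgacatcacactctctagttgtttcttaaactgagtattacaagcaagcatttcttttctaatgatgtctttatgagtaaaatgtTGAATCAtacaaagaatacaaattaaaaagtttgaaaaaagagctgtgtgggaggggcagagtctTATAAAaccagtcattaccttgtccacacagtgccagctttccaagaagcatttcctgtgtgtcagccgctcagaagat
*Plaur* held 3 GC boxes, which partly overlap each other, and 1 AP-1 motif. *Serpine2* held 6 GC boxes, some overlapping, in a window of 77.7% GC. *Serpinb2*, of 35.3% GC, held 1 AP-1 motif and 1 TATA box. The window of another annotated start of *Serpinb2*, chr1:107511260-107511559, is not shown and also held 1 AP-1 motif and 1 TATA box. An AP-1 motif was thus found both at a gene with reads and at a gene without. The windows of *Serpinf1*, at 50.7% GC, and *Serpini1*, at 60.0% GC, held none of the motifs. These are matches of letters and not sites shown to be bound.

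Levels within a library were then set against each other, since a ratio of the reads of one gene to those of another does not depend on how libraries are scaled. These pairs were chosen after the levels were seen. Of 10 pairs among the 5 detected genes, 1 had a 95% interval for the change between libraries that left out 1-fold, that of the activators. The FPKM of *Plau* was 1.80 times that of *Plat* in control and 2.07 times in *Myl3*-KO. Their read ratio went from 1.67 to 1.92, a 1.15-fold change with a 95% interval of 1.01 to 1.31. When the intervals were widened to cover all 10 pairs together, 0 left out 1-fold, and that of *Plau* to *Plat* ran from 0.954 to 1.39. For *Plau* relative to its receptor gene *Plaur* the change was 1.03-fold (95% interval 0.839 to 1.27). *Plat* relative to its inhibitor gene *Serpini1* changed 1.16-fold, with an interval from 0.812 to 1.67 set by the low reads of *Serpini1*. These intervals hold counting error alone, and no pair has a replicate check.

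**Figure D2:**
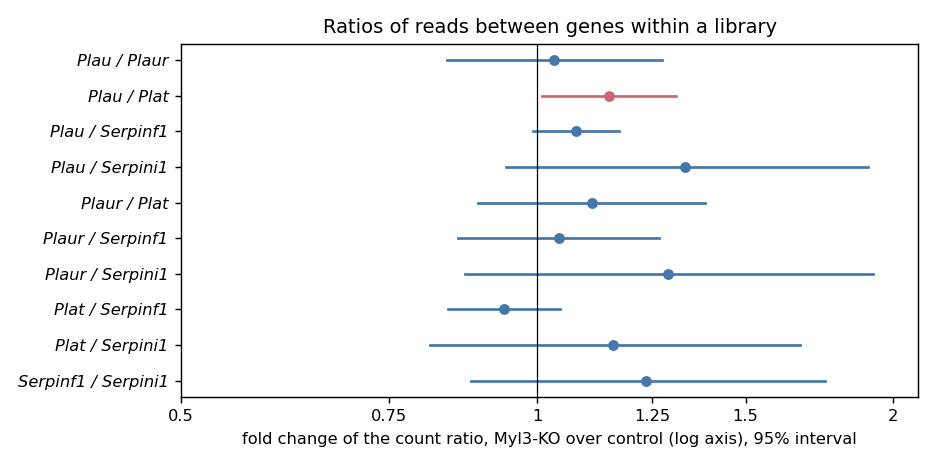
Fold change, *Myl3*-KO over control, of the ratio of reads between 2 genes within a library, on a log axis with 95% intervals, for the 10 pairs of the 5 detected genes. Red marks the pair whose interval leaves out 1-fold, *Plau* to *Plat* at 1.15-fold, and the intervals of the other pairs cross the line at 1.

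The rest of the plasmin system was followed with a list of 77 genes in 8 roles, found in 78 rows of the table, of which 45 were tested and 26 were at 0 in both libraries. Of the 45, 5 were called higher and 0 lower, or 3 higher with TMM or DESeq2 scaling, beside 3.14% and 0.925% of all genes tested. The median log2 ratio of the 45 was 0.15, against 0.02 over all genes tested, with 31 above 0 and 14 below. The list was chosen with earlier results of these data known. With a coefficient of variation of 0.2 assumed in edgeR's exact test, 0 genes of the list were called. No gene of the list has a replicate, so these values describe the libraries.

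**Figure D3:**
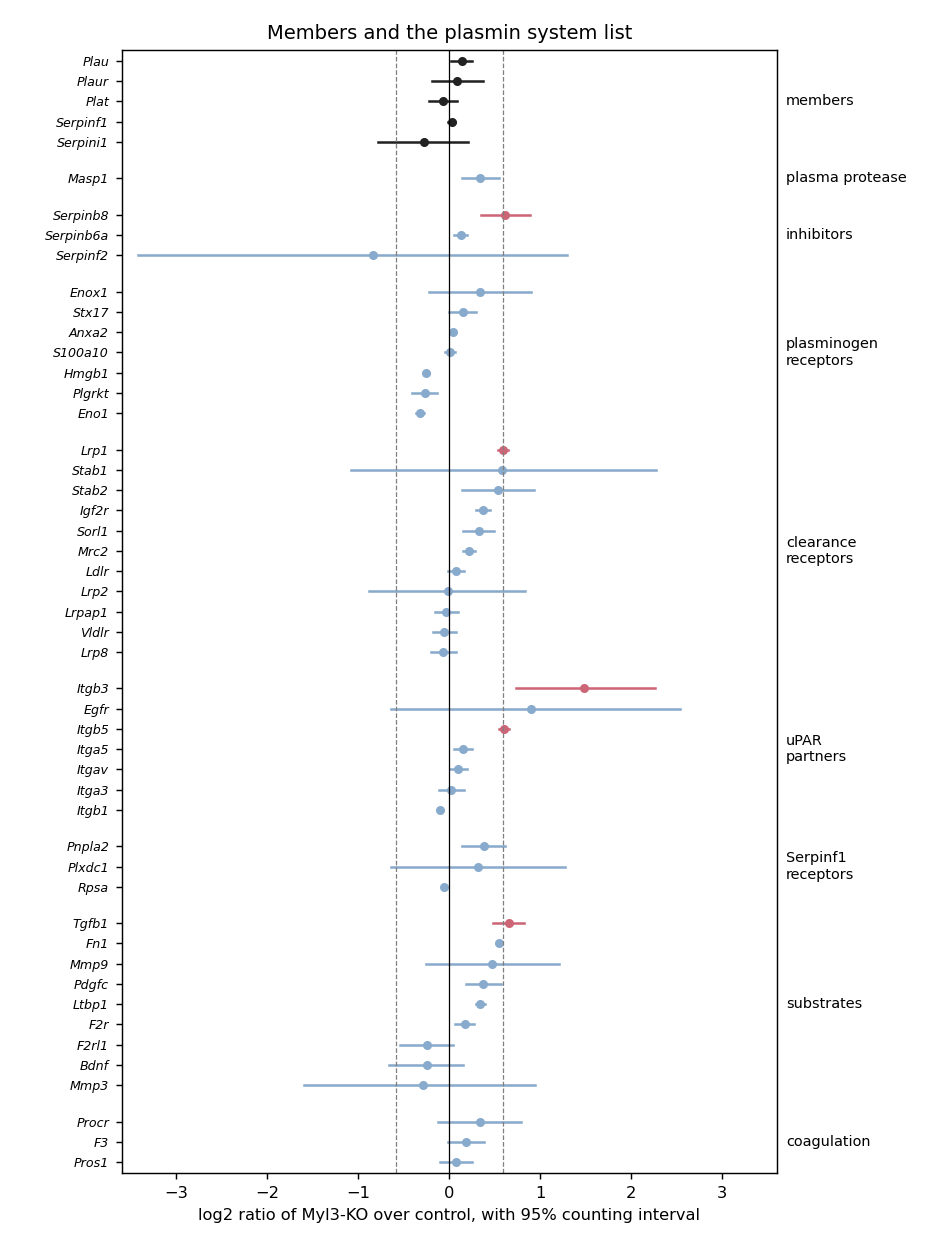
Log2 ratio of *Myl3*-KO over control with 95% counting intervals for the 5 detected genes (black) and tested genes of the plasmin system by role, with called genes in red and dashed lines at 1.5-fold. The 5 detected genes lie between -0.28 and 0.14, and the 5 red points are all above the upper dashed line.

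Plasminogen itself had no reads, as *Plg*, which is made mainly in liver, was at 0 counts in both libraries. *Vtn*, the gene of vitronectin, a plasma protein that binds the urokinase receptor, was also at 0. *Serpinf2*, which encodes the plasmin inhibitor alpha2-antiplasmin, had 7 counts in control and 3 in *Myl3*-KO. The interval of its log2 ratio, -0.84, ran from -3.42 to 1.29, so nothing can be said of its direction.

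Genes listed with plasminogen docking at the cell surface numbered 7, of which 0 were called, beside 3.14% of all genes tested called higher and 0.925% lower. Their log2 ratios ran from -0.32 to 0.33, and 4 of the 7 passed the exact binomial test after adjustment at ratios under the 1.5-fold limit. These were *Anxa2* and, below 0, *Eno1* (-0.32), *Plgrkt* (-0.27) and *Hmgb1* (-0.25), the last 3 named after their values were seen. *Eno1* and *Hmgb1* have near copies in the genome, so their counts are uncertain. The list also holds *Enox1* and *Stx17*, which are not established plasminogen receptors. *Anxa2*, the gene of annexin A2, which binds both plasminogen and tPA, had 17716 and 13963 counts, or 715 FPKM in control and 733 FPKM in *Myl3*-KO. Its log2 ratio was 0.04 (95% interval 0.01 to 0.07). Its partner *S100a10* had 527 and 530 FPKM, a log2 ratio of 0.01 (95% interval -0.05 to 0.06). Transcripts of the docking complex were thus more than 10 times as abundant per length as those of either activator.

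Clearance of uPA and tPA in complex with their inhibitors runs through the endocytic receptor LRP1. *Lrp1* was called higher, with 4484 counts in control and 5170 in *Myl3*-KO, or 17.2 and 25.8 FPKM. The log2 ratio was 0.59 (95% interval 0.53 to 0.65, adjusted p = 3.15e-87, exact binomial test), which is 1.51-fold. It lies so close to the limit that TMM scaling, which gave 0.56, or DESeq2 size factors, which gave 0.57, ended the call. *Mrc2*, the gene of a collagen receptor associated with the urokinase receptor, had 4182 and 3725 counts and a log2 ratio of 0.22 (95% interval 0.15 to 0.28) and was not called. Of the 11 genes of this role tested, which include the receptor chaperone gene *Lrpap1*, *Lrp1* was the only one called. Over all genes tested, 3.14% were called higher and 0.925% lower.

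Partners of the urokinase receptor include integrins and their ligands. Of the 7 tested, 2 were called higher, beside 3.14% of all genes tested called higher and 0.925% lower. These partners, the docking and clearance genes above, and the substrates and other inhibitors below are each too few to set against these shares. *Itgb3*, an integrin beta chain gene that pairs with the alpha-v chain, had 23 counts in control and 49 in *Myl3*-KO, or 0.23 and 0.63 FPKM. Its log2 ratio was 1.48 (95% interval 0.73 to 2.26, adjusted p = 0.000245, exact binomial test). *Itgb5*, of the same family, was far more abundant at 95.9 and 146 FPKM. Its log2 ratio was 0.60 (95% interval 0.55 to 0.66) and it was called, though not with TMM scaling (0.58) or DESeq2 size factors (0.58). Of 9 substrates tested, *Tgfb1*, whose latent growth factor can be released by plasmin, was the one called. It had 638 counts in *Myl3*-KO against 530 in control. Its log2 ratio was 0.65 (95% interval 0.49 to 0.82, adjusted p = 3.40e-13, exact binomial test). Of the 9 substrates, 5 had an adjusted p under 0.05 in this test, and 6 lay above 0 and 3 below. *Fn1*, named after its value was seen, was just under the limit at 1.46-fold (95% interval 1.45 to 1.48). Among the 4 other inhibitors tested, *Serpinb8*, an intracellular serpin gene, was the one called, at a log2 ratio of 0.62 (95% interval 0.35 to 0.89), from 214 to 251 counts. With a coefficient of variation of 0.2 assumed between samples, 0 of the 5 called genes of the list kept an adjusted p under 0.05 in edgeR's exact test. At an unadjusted p under 0.05 in that test, *Itgb3* was the one of the 5 left, at 0.0105.

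The serpins form a larger family. Of 58 other rows whose symbol begins with Serpin, 33 were at 0 in both libraries and 14 were tested, with 7 above 0, 7 below and a median log2 ratio of -0.04. Of the 14, 1 was called higher and 1 lower, beside 3.14% and 0.925% of all genes tested. These rows share genes with the plasmin system list, and the gene called higher is *Serpinb8*, already counted there. A single gene in each direction is too few to set against these shares. The highest by mean FPKM was *Serpinh1*, the gene of the collagen chaperone HSP47, at 401 FPKM in control and 372 FPKM in *Myl3*-KO. For *Serpinh1* the log2 ratio was -0.11 (95% interval -0.15 to -0.07). *Serpinb6a*, an intracellular serpin gene, followed at 136 and 150 FPKM with a log2 ratio of 0.13 (95% interval 0.06 to 0.20). *Serpinb8* stood at 3.52 and 5.12 FPKM and *Serpina3g* at 2.71 and 2.91 FPKM. The gene called lower was *Serpinb9e*, which fell from 38.49 counts to 13 at a log2 ratio of -1.18 (95% interval -2.19 to -0.22, adjusted p = 0.0324, exact binomial test). It belongs to a cluster of closely related genes among which the counting may have split reads, so its value is uncertain.

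**Figure D4:**
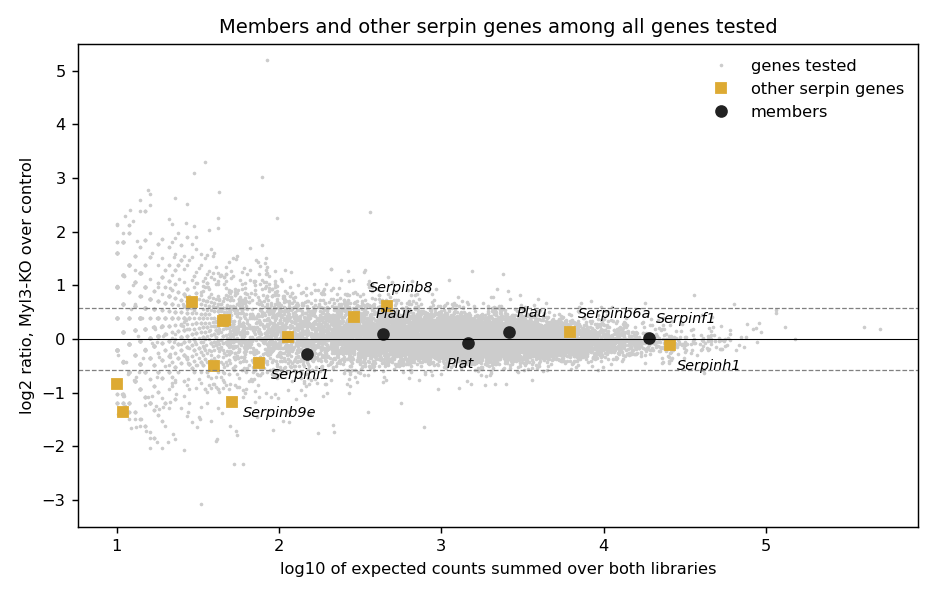
Log2 ratio of *Myl3*-KO over control against log10 of the counts summed over both libraries for all genes tested (grey), with the 5 detected genes (black) and other serpin genes (yellow), and dashed lines at 1.5-fold. The 5 black points lie inside the dashed lines, while *Serpinb8* and *Serpinb9e* are the called serpins.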

How the data were processed

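RNA was extracted with Trizol and sequenced on an Illumina instrument. Enrichment of mRNA on oligo beads is given in the paper, whereas the labels name a SMARTER kit. Per the labels the genome build was GRCm38 (mm10). The aligner, counting tool and strand setting are not given in the sources used here. The authors deposited expected counts per gene, which are estimated reads and not normalized, and FPKM values. The column headed NC was read as control because the other is headed KO.

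Expected counts were rounded for the exact binomial test, two-sided and with the library totals as the expected share, and for the Clopper-Pearson intervals. Of the genes, 12431 had at least 10 counts over both libraries. Intervals of FPKM are Poisson intervals of the counts, and those of pair ratios are exact conditional intervals. The quasi-likelihood test of edgeR and the test of DESeq2 have no residual degrees of freedom with 1 library per genotype. The genes, lists and tests were chosen with earlier results of these data known. Named genes were all members, fixed genes of the plasmin list, called genes of the lists, and the 5 other serpins with the highest mean FPKM, but 1 gene of these lists, counted in their totals, is not reported here. Genes of like pattern were not sought, as over 2 libraries a pattern is a single ratio.

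The alternatives were TMM factors, DESeq2 size factors, other filters and limits, 1 added count, FPKM ratios, and the exact test of edgeR with the variation assumed (0.2 or 0.4). The test was tried on simulated data. Python 3.11.15, scipy 1.17.1, Biopython 1.88, R 4.3.3, edgeR 4.0.16 and DESeq2 1.42.0 were used. GENCODE M21 held 21881 of 21910 Ensembl identifiers.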

Additional observations from a re-analysis of the deposited data

How the results depend on the processing

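The count of 0 called genes among *Plau*, *Plaur*, *Plat*, *Serpinf1* and *Serpini1* held under all 9 alternatives of scaling, filter, added count, assumed variation and limit. A limit of 2-fold could not add a call. With an assumed variation of 0.2 or 0.4, 4 or 1 of all 12431 genes tested were called. These settings could therefore hardly have changed the count of 0. The directions of these genes held with TMM factors, DESeq2 size factors, 1 added count and FPKM ratios, except that of *Serpinf1*, whose log2 ratio was -0.000485 with TMM factors. The filters, limits and assumed variations leave the log2 ratio as it is and cannot alter a direction. *Plau* was nearest to the threshold, with an adjusted p of 0.0480 in the exact binomial test when at least 10 counts were required in each library, but its ratio was far under 1.5-fold. The directions of all 10 pair ratios held with FPKM and with 1 added count.

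The called genes of the plasmin system list numbered 5, and 3 with TMM factors or DESeq2 size factors, 1 with a limit of 2-fold (*Itgb3*), 24 with no limit (18 higher and 6 lower), and 0 with an assumed coefficient of variation of 0.2 or 0.4. Of the other serpin genes 2 were called, 1 of them (*Serpinb8*) also in the plasmin system list. With a limit of 2-fold 1 was called, with no limit 6, and with either assumed variation 0. Over all genes, 505 were called, and 192 with a limit of 2-fold, 4397 with no limit, 4 with an assumed variation of 0.2 and 1 with 0.4. Scaling by TMM or DESeq2 moved the median log2 ratio of all genes tested by -0.03 or -0.02.

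No paired analysis was possible because each genotype has 1 library, and for the same reason leaving out a library was not run. Depth limits *Serpini1* most, and *Serpine2* and *Serpinb2* have no counts to compare.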
